A study of Mus musculus with 12 samples.

Results

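The genes described here are 10 cyclins and cyclin-dependent kinases (CDKs) of the cell division cycle, taken by symbol from a table of 56941 genes: Ccnd2, Ccnd3, Cdk4 and Cdk6 of the G1 phase, Ccne1 and Cdk2 of the G1/S transition, and Ccna2, Ccnb1, Ccnb2 and Cdk1 of the S and G2/M phases. They were taken by name, with no threshold on a measured value, and with earlier results of these data known. All 10 passed the filter on low counts and were among the 15148 genes tested. The samples were bulk RNAseq libraries of B cells sorted from the mouse peritoneal cavity (PerC), 3 per group in 4 groups. B2 cells were gated as IgD+IgM+ and MemB, the memory B cell gate, as IgD-IgM-. KI mice carried Cd21-Cre and a Cre-dependent Rosa26 allele that encodes Gpr34 Q340X, a truncated gain-of-function receptor, with an IRES-GFP reporter. The controls are labelled only as control. Each genotype was sorted into both gates, which gives the 4 groups. Cd21-Cre acts in mature B cells and in follicular dendritic cells, and the labels give no gate on the reporter and no age. Replicates are labelled as biological, and nothing says whether same-numbered B2 and MemB libraries came from one animal.

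A cyclin is the regulatory subunit that switches on its CDK. D-type cyclins with CDK4 or CDK6 phosphorylate the retinoblastoma protein during G1 and connect outside signals to the cycle. Their genes are expressed in resting lymphocytes too, and cyclin D2 and cyclin D3 are the main D-type cyclins of B cells. Cyclin E with CDK2 drives entry into S phase. Cyclin A2 works in S phase and G2, and the B-type cyclins with CDK1 drive mitosis. The transcripts of these late genes build up only in cells that have left G1, so that in bulk RNA their level follows how many cells are dividing and how much RNA each of them holds. Those quantities cannot be told apart in bulk samples.

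The libraries held 29895068 to 39732124 expected counts, and ribosomal RNA rows made up 29.3% to 38.3% of them. Levels are given as CPM, the count scaled by the library's total over the 15148 genes tested and by edgeR's TMM factor. Gpr34, whose counts include the transcript of the KI allele, lay between 3.42 and 30.8 CPM in the 6 control libraries and between 100 and 168 CPM in the 6 KI libraries. The 6 B cell markers were detected in every library, with a summed level between 3077 and 3569 CPM. Ighd averaged 1526 CPM in control B2 and 228 CPM in control MemB, but Ighm, whose surface protein the MemB gate excludes, averaged 2441 CPM in control MemB and 443 CPM in KI MemB. Ighd was at 89.7 CPM in KI MemB (log2 fold change -1.35 against control MemB, edgeR adjusted p = 9.39e-05). For Ighm the log2 fold change between these groups was -2.46 (edgeR adjusted p = 4.81e-11). Of the other B2 markers, Fcer2a (54.6 and 121 CPM) and Cr2 (44.3 and 81.0 CPM) were higher on average in KI MemB, without passing the test. Markers of B-1 cells, a PerC B cell type, summed to between 581 and 649 CPM in control MemB and between 463 and 517 CPM in KI MemB, with all 4 detected in every library. Mast cell markers stood apart in 3 libraries, summing to 45.0 CPM in control MemB replicate 1, to 240 CPM in control MemB replicate 3 and to 74.9 CPM in KI B2 replicate 3, against 1.77 CPM or less in the other 9.

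The G1 members made up most of the RNA measured here. Per kb of merged exons, the mean over the 12 libraries was highest for Ccnd2 at 30.7 ± 6.23 CPM per kb (SD, n = 12), followed by Cdk4 at 12.1 ± 3.54, Ccnd3 at 7.29 ± 2.22 and Cdk6 at 6.70 ± 4.52 CPM per kb. On this length Ccnd2 stood clear of the rest, while Ccnd3 and Cdk6 lay within a single SD of each other. Ccna2 at 5.59 ± 5.47, Cdk2 at 5.54 ± 3.17 and Ccne1 at 4.03 ± 2.81 CPM per kb did not differ from Cdk6 beyond their spread. Ccnb2 at 2.78 ± 2.69, Ccnb1 at 2.27 ± 2.30 and Cdk1 at 1.24 ± 1.64 CPM per kb were lowest. This order pools groups: in KI MemB, Ccne1 was lowest at 1.85 CPM per kb, Cdk1 was at 3.40, and Ccna2 at 8.68 and Ccnb2 at 6.21 exceeded Cdk6 at 4.61 CPM per kb. With the length of the canonical transcript in place of merged exons, a choice made after seeing the data, Ccnd3 moved to 33.4 ± 10.2 CPM per kb and to second place behind Ccnd2 at 45.6 ± 9.26 CPM per kb, so that their SD ranges overlapped, and Cdk1 stayed last at 1.66 CPM per kb.

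**Figure D1:**
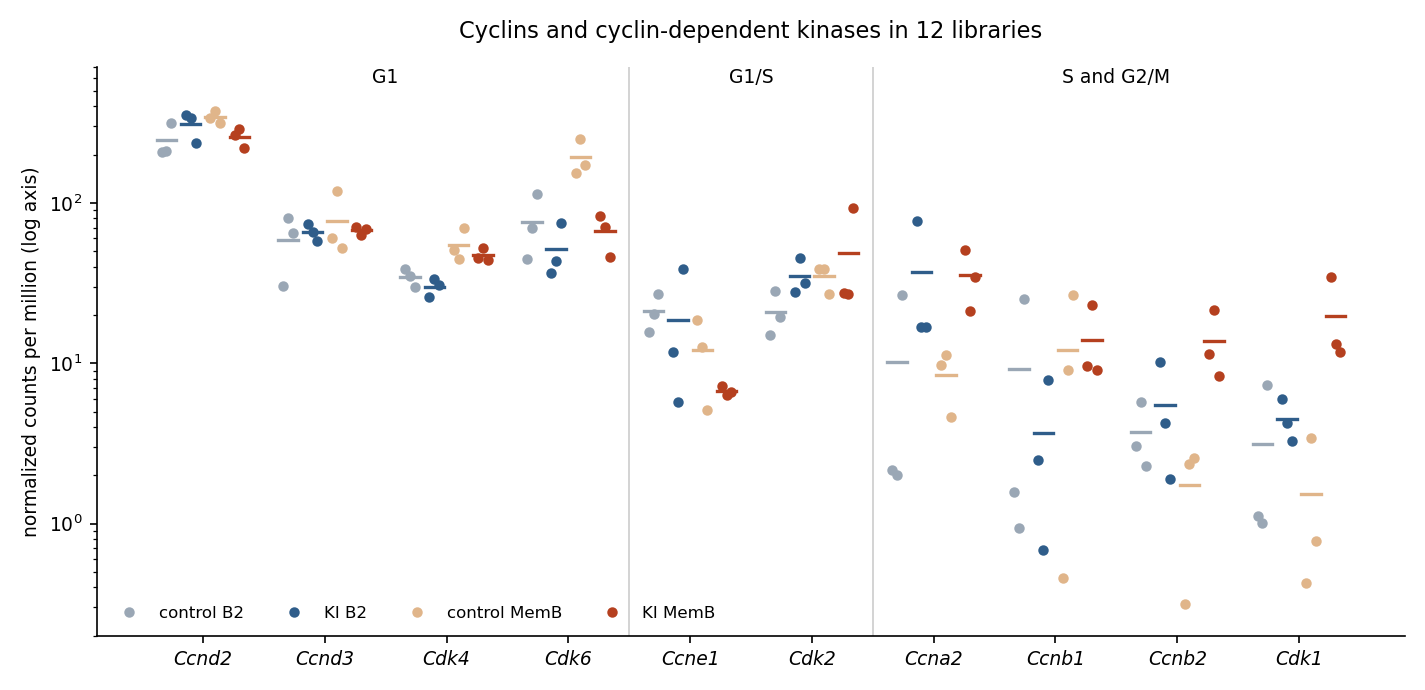
Level of each member in CPM (log axis) in each of the 12 libraries. Points are libraries, short bars are group means, colours are the 4 groups, and vertical lines separate the G1, G1/S, and S and G2/M members. Ccnd2 sits between 208 and 372 CPM in all 12 libraries, while Cdk1 reaches from 0.426 to 34.5 CPM.

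Replicates of a group were close for the G1 members and far apart for the late ones. Over the 4 groups and 4 genes of each class, the coefficient of variation between the 3 libraries of a group had a median of 22.2% for the G1 members (range 6.45% to 46.7%) and 74.8% for the S and G2/M members (range 30.4% to 150%). Ccne1 and Cdk2 lay between, with a median of 29.9% (range 6.49% to 93.4%). In the edgeR model, the biological coefficient of variation was 27.5% for Ccnd2, 35.6% for Cdk6, 37.9% for Ccnd3 and 41.1% for Cdk4, against 67.5% for Ccna2, 90.1% for Cdk1, 92.5% for Ccnb2 and 94.8% for Ccnb1. The trend that edgeR fitted over all genes was 39.3% at the level of Ccnd3 and 93.5% at that of Cdk1. The RNA was amplified before sequencing, and the share of this spread that comes from amplification was not tested.

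The question addressed by comparing KI with control is whether the RNA of these genes differs by genotype, which does not by itself count dividing cells. The authors measured division by Ki67 staining and by EdU labelling of proliferating cells, and reported more of both in KI MemB. A gene was called when edgeR's quasi-likelihood test gave a Benjamini-Hochberg adjusted p below 0.05 with a log2 fold change above 1 or below -1. None of the 10 members was called between KI and control in MemB, where 43 of the 15148 genes were (0.284%). Of the 10, 4 had an unadjusted p below 0.05 (Ccna2, Ccnb2, Cdk1 and Cdk6), against 11.1% of all genes. In 3 members every KI MemB library lay above every control MemB library, and all 3 were S and G2/M genes (Ccna2, Ccnb2 and Cdk1). This held for 6.01% of all genes. In another 2, both G1 genes (Ccnd2 and Cdk6), every KI library lay below every control library, as in 6.08% of all genes. The median log2 fold change was 2.52 over the S and G2/M members and -0.31 over the G1 members, beside -0.03 over all genes tested. DESeq2, the tool the authors used and run here as an alternative, called Cdk1, Ccnb2 and Cdk6 and 4.88% of all genes it tested.

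**Figure D2:**
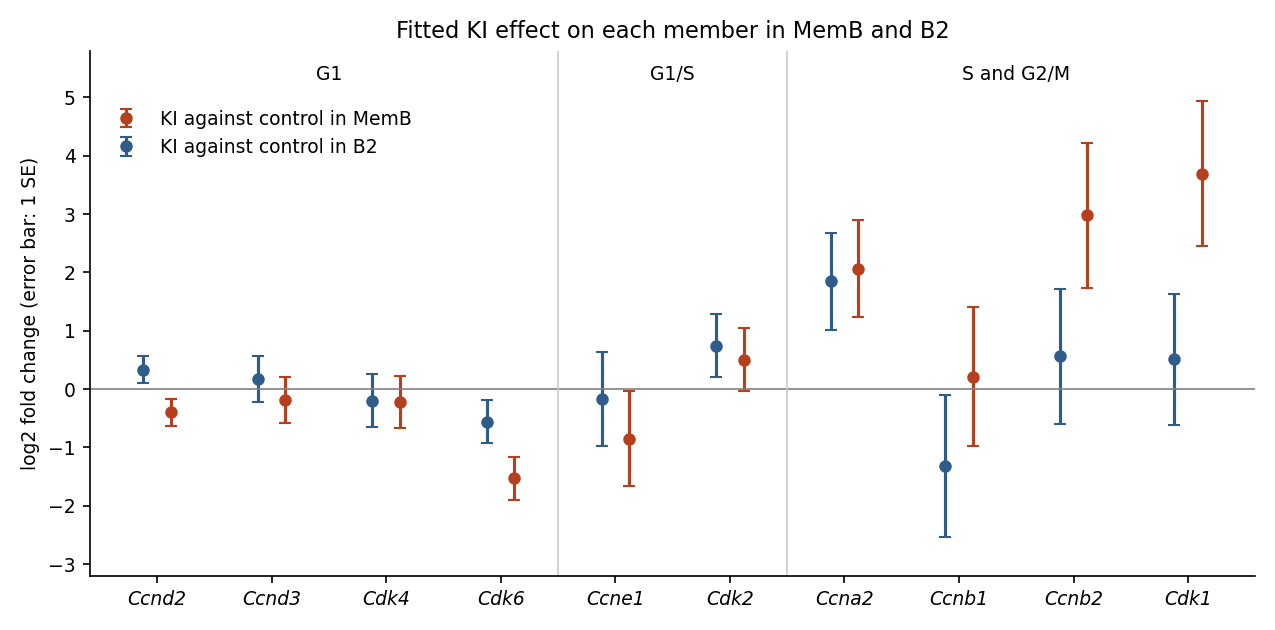
Fitted log2 fold change of KI against control for each member, in MemB and in B2. Points are edgeR estimates from 3 KI and 3 control libraries and error bars are 1 SE. In MemB the 4 G1 members lie between -1.53 and -0.19 and the 4 S and G2/M members between 0.21 and 3.69.

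Cdk1, the kinase that drives mitosis, had the largest estimate. It lies on chromosome 10 (GRCm39, GENCODE M39, 69170976 to 69236595, minus strand), and 1 of its neighbours, Ank3 on the other strand, shares exonic bases with it. Its level was 34.5, 13.2 and 11.8 CPM in KI MemB, 0.426, 3.40 and 0.779 CPM in control MemB, 5.95, 4.21 and 3.27 CPM in KI B2, and 1.11, 1.01 and 7.33 CPM in control B2. All 3 KI MemB libraries were above the other 9. The means were 19.8 ± 12.7 CPM in KI MemB and 1.54 ± 1.63 CPM in control MemB (SD, n = 3), a log2 fold change of 3.69 (SE 1.24), with an edgeR p of 0.00574 and an adjusted p of 0.306. Leaving out each library in turn kept the estimate between 3.03 and 5.03 and the adjusted p between 0.265 and 0.531. DESeq2 gave 3.71 with an adjusted p of 0.00407, so that the call rests on the choice of test.

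Ccnb2, a B-type cyclin that partners CDK1, followed it. The gene is on chromosome 9 (GRCm39, 70314966 to 70328874, minus strand). It was measured at 11.5, 21.5 and 8.37 CPM in KI MemB, at 0.313, 2.35 and 2.58 CPM in control MemB, at 10.2, 4.26 and 1.91 CPM in KI B2 and at 3.06, 5.77 and 2.30 CPM in control B2. KI MemB stood above control MemB in every library but overlapped KI B2, whose replicate 1 was at 10.2 CPM. Group means were 13.8 ± 6.87 CPM and 1.75 ± 1.25 CPM in KI and control MemB (SD, n = 3), a log2 fold change of 2.98 (SE 1.24, edgeR adjusted p = 0.366), and DESeq2 gave an adjusted p of 0.0121. The table also holds Ccnb2-ps, a processed pseudogene on chromosome 8 (GRCm39, 72671046 to 72671668, minus strand) that overlaps Gm5373, Zfp617 and Gm63607. Its row held between 8.24 and 707 counts per library, against 11 to 702 for Ccnb2, and how reads were divided between them is uncertain. With both rows added, an alternative chosen after seeing the data, the sums were 11.7, 35.1 and 30.2 CPM in KI MemB and 2.24, 9.71 and 7.15 CPM in control MemB, still without overlap, and the log2 fold change was 2.01 (edgeR adjusted p = 0.389).

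Ccna2 encodes cyclin A2, which acts with CDK2 in S phase and with CDK1 later. It lies on chromosome 3 (GRCm39, 36619014 to 36626299, minus strand) and shares exonic bases with Exosc9 on the other strand. In KI MemB it was at 50.6, 21.1 and 34.5 CPM, in control MemB at 9.70, 11.2 and 4.61 CPM, in KI B2 at 77.4, 16.9 and 16.8 CPM, and in control B2 at 2.16, 2.00 and 26.6 CPM. The MemB groups did not overlap. The B2 groups did, because control B2 replicate 3, at 26.6 CPM, exceeded 2 of the 3 KI B2 libraries. In MemB the means were 35.4 ± 14.8 and 8.51 ± 3.46 CPM (SD, n = 3). The log2 fold change was 2.06 (SE 0.83, edgeR adjusted p = 0.360, unadjusted 0.0190). In B2 they were 37.0 ± 34.9 and 10.3 ± 14.2 CPM. The log2 fold change was 1.85 there (SE 0.83, edgeR adjusted p = 0.838, unadjusted 0.0324). That B2 estimate was 0.71 without KI B2 replicate 1 and 4.15 without control B2 replicate 3, and was called in neither fit.

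Ccnb1, the other B-type cyclin, did not follow Ccnb2. It is on chromosome 13 (GRCm39, 100915153 to 100923116, minus strand). Its level was 9.56, 23.1 and 9.12 CPM in KI MemB, 0.455, 9.09 and 26.7 CPM in control MemB, 2.49, 0.685 and 7.84 CPM in KI B2, and 1.58, 0.939 and 25.0 CPM in control B2. The highest value in all 12 libraries was in control MemB replicate 3 and the lowest in control MemB replicate 1, so that a single group spanned the whole range. Its MemB estimate was 0.21 on the log2 scale (SE 1.19, edgeR adjusted p = 0.981), and its sign turned when KI MemB replicate 2 (-0.37) or control MemB replicate 1 (-0.35) was left out. The row of its pseudogene Ccnb1-ps held at most 23.2 counts, in a library with 817 for Ccnb1. Control B2 replicate 3 was the highest control B2 library for Ccna2, Ccnb1 and Cdk1, though not for Ccnb2.

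Promoter windows of the late members are shown because the genes with the largest KI estimates in MemB can be read there beside a G1 gene. Late cell cycle genes are known for CCAAT boxes, bound by NF-Y, and for the cell cycle homology region (CHR), read by the DREAM and MuvB complexes. Windows of 250 bases before to 50 after the start site were taken from RefSeq on GRCm38.p6 and matched 8 of the 10 members, with 2 start sites for Ccnd3. Ccna2 and Ccnd2 had none. Both strands were searched for the CHR word TTTGAA and its variant TTCGAA. The word CCAAT was searched likewise, and for E2F the words TTCCCGC and also TTCGCGC, then TTGCCGC and finally TTGGCGC. The stretch from 150 bases before to 20 bases after the start follows for Cdk1 (chr10:69352893-69353062, minus strand), Ccnb2 (chr9:70421535-70421704, minus strand), Ccnb1 (chr13:100786467-100786636, minus strand) and, as a G1 contrast, Cdk6 (chr5:3343743-3343912, plus strand), each written 5′ to 3′ along the gene with matched words in capitals.
Cdk1: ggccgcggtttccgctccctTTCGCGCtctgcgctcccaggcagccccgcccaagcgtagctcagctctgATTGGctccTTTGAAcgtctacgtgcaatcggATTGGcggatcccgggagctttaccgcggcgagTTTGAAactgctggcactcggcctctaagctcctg
Ccnb2: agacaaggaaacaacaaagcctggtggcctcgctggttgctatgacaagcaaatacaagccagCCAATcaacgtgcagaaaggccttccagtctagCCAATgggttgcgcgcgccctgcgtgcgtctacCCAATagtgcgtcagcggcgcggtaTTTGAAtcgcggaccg
Ccnb1: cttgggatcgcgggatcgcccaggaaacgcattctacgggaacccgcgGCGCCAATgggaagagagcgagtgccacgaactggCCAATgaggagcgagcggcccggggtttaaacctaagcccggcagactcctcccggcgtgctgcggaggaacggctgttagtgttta
Cdk6: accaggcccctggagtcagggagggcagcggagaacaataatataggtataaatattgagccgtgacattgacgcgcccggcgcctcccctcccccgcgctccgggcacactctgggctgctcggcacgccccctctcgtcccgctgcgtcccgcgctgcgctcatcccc

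Positions are counted from the start site as 1, and a word's position is that of its leftmost base. Cdk1 held CHR words at -71 and -15 and, on the opposite strand, CCAAT words at -208, -80 and -48, with E2F words at -178 and -130. Ccnb2 held a CHR word at 5 and another at -167, outside the printed stretch, with CCAAT words at -87, -54 and -21. Ccnb1 held CCAAT words at -99 and -67, and its only E2F word, at -102, overlaps the first of these. Its window held neither TTTGAA nor TTCGAA, the only CHR words searched. Among the other windows, Cdk2 held 1 CCAAT word and 3 E2F words, the second start of Ccnd3 held a CCAAT word at -108, and the windows of Cdk4, Cdk6, Ccne1 and the first start of Ccnd3 held none of these words. Of all 32851 windows of this length, 37.4% held a CCAAT word, 19.2% a CHR word and 9.60% an E2F word, and 2.31% held a CHR word with at least 2 CCAAT words, as Cdk1 and Ccnb2 do. In all 3 late members a pair of CCAAT words in one orientation began 32 or 33 bases apart, a spacing noticed in these windows first and found in 0.490% of all windows. A matched word describes the sequence only.

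**Figure D3:**
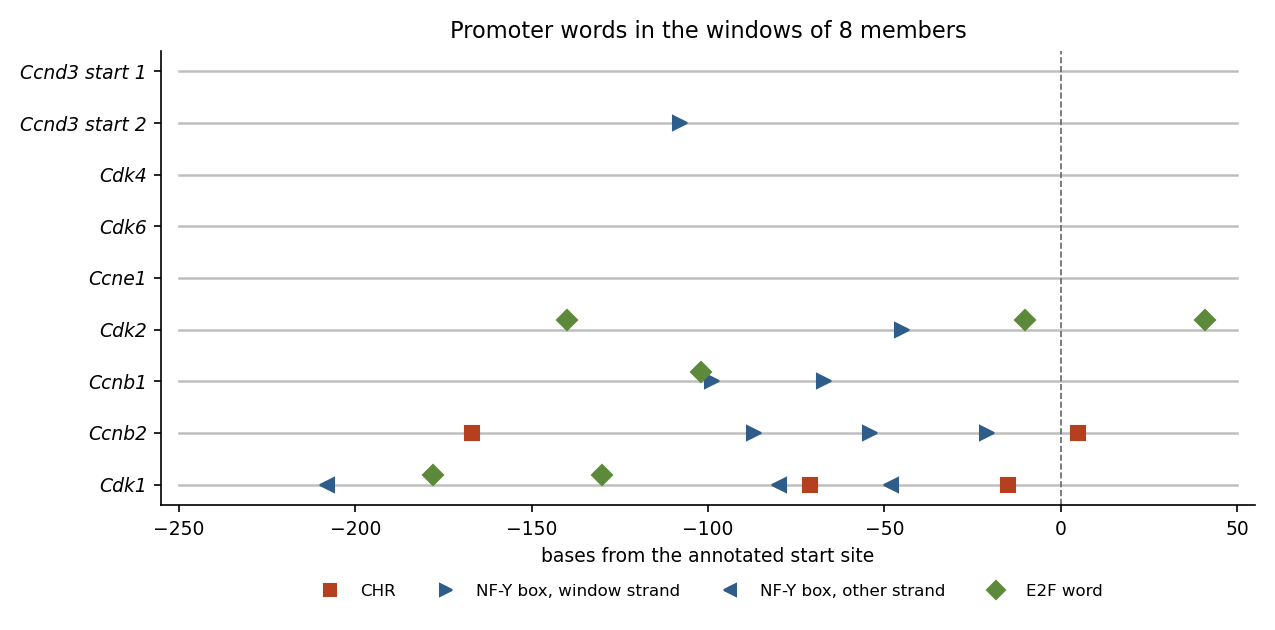
Positions of the CHR, NF-Y box (CCAAT) and E2F words in the promoter windows of 8 members, in bases from the annotated start site. Each line is a window, arrows give the orientation of the NF-Y box, and the dashed line is the start site. The windows of Cdk1 and Ccnb2 hold 2 CHR words and 3 NF-Y boxes each, and those of Cdk4, Cdk6 and Ccne1 hold none of the words.

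Cdk6, a G1 kinase that partners D-type cyclins, was the member closest to a call. It lies on chromosome 5 (GRCm39, 3391485 to 3581008, plus strand) and shares exonic bases with Cdk6os1, Gm29868 and Gm17590 on the other strand. Its level was 82.6, 70.8 and 46.2 CPM in KI MemB, 153, 251 and 172 CPM in control MemB, 36.7, 43.5 and 74.7 CPM in KI B2, and 44.7, 70.0 and 114 CPM in control B2. The 3 control MemB libraries were the highest of all 12. KI MemB lay within the range of the B2 groups. The means were 66.5 ± 18.6 CPM in KI MemB and 192 ± 51.9 CPM in control MemB (SD, n = 3), a log2 fold change of -1.53 (SE 0.37) with an edgeR p of 0.000265 and an adjusted p of 0.0692. Over the 12 fits without a library the estimate ran from -1.71 to -1.29 and the adjusted p from 0.0454 to 0.307. The gene was called in 3 of them, without control B2 replicate 1 (adjusted p = 0.0498), control B2 replicate 3 (0.0454) or KI B2 replicate 3 (0.0480), none of which enters the contrast itself. edgeR without the filter on low counts (0.00883) and DESeq2 (0.0282) called it as well, and the remaining alternatives did not.

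The other G1 members stayed nearer to 0. Ccnd2, the most abundant member, lies on chromosome 6 (GRCm39, 127102125 to 127129156, minus strand) and was at 267, 289 and 220 CPM in KI MemB, 340, 372 and 313 CPM in control MemB, 353, 338 and 235 CPM in KI B2, and 208, 212 and 317 CPM in control B2. The MemB groups did not overlap and KI was lower, whereas in B2 the groups overlapped and 2 of 3 KI libraries were above all controls. The log2 fold change was -0.40 in MemB (SE 0.23, edgeR adjusted p = 0.537) and 0.33 in B2 (SE 0.23, adjusted p = 0.924), and the difference between these effects, -0.73 (SE 0.32), had an edgeR p of 0.0307 and an adjusted p of 0.526. Cdk4, on chromosome 10 (GRCm39, 126895180 to 126903789, plus strand), was at 45.5, 52.4 and 43.8 CPM in KI MemB, 51.0, 44.4 and 69.5 CPM in control MemB, 25.9, 33.5 and 30.7 CPM in KI B2, and 38.6, 34.9 and 30.1 CPM in control B2. Cdk4 overlapped between genotypes in both cell types, with log2 fold changes of -0.22 (SE 0.44) in MemB and -0.20 (SE 0.45) in B2, and every MemB library was above every B2 library. Ccnd3, on chromosome 17 (GRCm39, 47815767 to 47910624, plus strand), was at 71.2, 62.8 and 69.1 CPM in KI MemB, 60.4, 119 and 52.7 CPM in control MemB, 73.8, 65.5 and 58.1 CPM in KI B2, and 30.2, 80.4 and 65.3 CPM in control B2. All 4 groups overlapped. Its log2 fold change was -0.19 (SE 0.40) in MemB, which turned to 0.26 without control MemB replicate 2, the library at 119 CPM.

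The G1/S pair had estimates of opposite sign in MemB. Ccne1, the cyclin that activates CDK2, lies on chromosome 7 (GRCm39, 37797404 to 37808264, minus strand) and was at 7.19, 6.34 and 6.61 CPM in KI MemB, 18.5, 12.7 and 5.13 CPM in control MemB, 11.8, 5.75 and 38.6 CPM in KI B2, and 15.7, 20.2 and 27.2 CPM in control B2. The KI MemB libraries were close together and lay inside the range of control MemB. Its log2 fold change in MemB was -0.85 (SE 0.81, edgeR adjusted p = 0.773). Cdk2, on chromosome 10 (GRCm39, 128533796 to 128540963, minus strand), was at 27.3, 27.0 and 92.7 CPM in KI MemB, 38.6, 38.5 and 27.2 CPM in control MemB, 27.8, 45.6 and 31.5 CPM in KI B2, and 15.1, 28.4 and 19.4 CPM in control B2. A single library, KI MemB replicate 3, stood far above the rest. The log2 fold change in MemB was 0.50 (SE 0.54, edgeR adjusted p = 0.813) with that library and -0.35 without it.

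In B2 none of the 10 members was called between KI and control by edgeR or by DESeq2, where edgeR called 1 gene in all (0.0066%) and DESeq2 190 (1.21%). Ccna2 was the only member with an unadjusted edgeR p below 0.05, against 5.74% of all genes. DESeq2 gave Ccna2 an unadjusted p of 0.0539 and no member one below 0.05. In none of the 10 did all KI B2 libraries lie above or below all controls, as 5.21% and 4.99% of all genes did. The median log2 fold change was 0.53 over the S and G2/M members, which ran from -1.32 for Ccnb1 to 1.85 for Ccna2, and -0.02 over the G1 members. The median of the S and G2/M members was -0.01 without KI B2 replicate 1, 1.81 without control B2 replicate 3 and -0.10 with pseudogene rows added. The MemB and B2 effects were compared directly by the interaction term of the same model. None of the 10 was called by either tool, against 10 genes in all in edgeR (0.066%) and 425 in DESeq2 (2.84%). In edgeR, 1 member, Ccnd2, had an unadjusted p below 0.05, against 8.49% of all genes. DESeq2 gave unadjusted p-values of 0.0141 for Cdk1 and 0.0363 for Ccnb2 (adjusted 0.199 and 0.323), and 0.0753 for Ccnd2. The differences for Cdk1 (3.18, SE 1.62, edgeR adjusted p = 0.615), Ccnb2 (2.42, SE 1.66, adjusted p = 0.762) and Cdk6 (-0.97, SE 0.52, adjusted p = 0.648) did not pass. The Cdk1 difference was 1.61 without control B2 replicate 3, and that of Cdk6 was -0.60 without KI B2 replicate 3. That of Ccna2 was 0.21 (adjusted p = 0.995), with a 95% interval from -2.01 to 2.43 that leaves room for a large difference in either direction.

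Between MemB and B2 averaged over genotypes, the smallest p-values among the members were those of Cdk6 and Cdk4. In edgeR this order did not hold within each genotype, where Cdk1 had the smallest p in KI (edgeR adjusted p = 0.531) and Ccnd2 came before Cdk4 in control. In DESeq2 the smallest p-values were those of Cdk6 and Cdk4 in control, and of Cdk4 and Cdk1 in KI. Averaged over genotypes, edgeR called 153 genes between MemB and B2 (1.01%) and none of the 10 members. DESeq2 called 819 genes (5.35%) and none of the members, although it gave Cdk4 an adjusted p of 0.00804 at a log2 fold change of 0.66, below the fold limit. Cdk6 (log2 fold change 0.85, SE 0.26, edgeR adjusted p = 0.109) and Cdk4 (0.66, SE 0.32, adjusted p = 0.369) had an unadjusted edgeR p below 0.05, as did 12.9% of all genes. In DESeq2, Ccne1 was below 0.05 as well (unadjusted p = 0.0181). Without control B2 replicate 3, Cdk6 was called with a log2 fold change of 1.06 (edgeR adjusted p = 0.0440). Within controls no member was called by either tool, against 0.264% of all genes in edgeR and 4.42% in DESeq2. In edgeR, 2 members (Ccnd2 and Cdk6) had an unadjusted p below 0.05, against 10.6% of all genes. DESeq2 gave unadjusted p-values of 0.0039 for Cdk6 and 0.0087 for Cdk4, and 0.101 for Ccnd2. Cdk4 and Cdk6 were higher in every control MemB library than in every control B2 library, as were 6.32% of all genes. The Cdk6 difference was 1.33 there (SE 0.37, edgeR adjusted p = 0.164). Within KI mice no member was called by either tool, against 0.363% and 4.07% of all genes. None had an unadjusted edgeR p below 0.05, against 10.6% of all genes. DESeq2 gave an unadjusted p below 0.05 for Cdk4 (0.00991), Cdk1 (0.0192) and Ccne1 (0.0306). Cdk4, Ccnb1 and Cdk1 were higher in every KI MemB library than in every KI B2 library, a pattern of 7.3% of all genes. Contrasts that share a group share its libraries: the control MemB libraries that are high in Cdk6 enter both the genotype and the cell type comparison.

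Ratios within a library do not depend on its scaling. Cdk6 to Cdk4, the alternative G1 kinases, gave 3.00, 5.65 and 2.47 in control MemB and 1.82, 1.35 and 1.06 in KI MemB (means 3.71 ± 1.70 and 1.41 ± 0.383, SD, n = 3). The MemB groups did not overlap, while control B2 (1.16, 2.00 and 3.78) and KI B2 (1.42, 1.3 and 2.44) did. Cdk1 to Cdk6, a mitotic against a G1 kinase, was 0.417, 0.187 and 0.256 in KI MemB and 0.00278, 0.0136 and 0.00454 in control MemB. In KI B2 the ratio was 0.162, 0.0967 and 0.0437 and in control B2 0.0248, 0.0144 and 0.0643, so that KI MemB was above the other 9 libraries and control MemB below all of them. This pair joins the members with the largest KI estimate and the most negative one in MemB, and other ratios separated less. Cdk1 to Cdk2 was 0.128 to 1.26 in KI MemB and 0.011 to 0.0884 in control MemB, but reached 0.377 in control B2 and 0.214 in KI B2. Ccna2 to Ccne1 was 3.33 to 7.04 in KI MemB and 0.525 to 0.899 in control MemB, and overlapped KI B2 (0.435 to 6.56). Ccnd2 to Ccnd3 overlapped between all groups. The summed CPM of the 4 S and G2/M members as a percentage of that of the 4 G1 members was 22.8%, 16.6% and 16.8% in KI MemB, 1.8%, 3.32% and 5.71% in control MemB, 19.6%, 5.42% and 7.48% in KI B2, and 2.46%, 2.44% and 11.7% in control B2. The KI MemB mean was 18.7 ± 3.49% and the control MemB mean 3.61 ± 1.97% (SD, n = 3). Both sums differed between the MemB groups: the S and G2/M sum averaged 23.9 CPM in control and 83.0 CPM in KI, and the G1 sum 666 and 440 CPM. With 3 libraries against 3, an exact permutation test cannot give a two-sided p below 0.1, and none is given for these ratios. The ratios and sums reuse the member values given above, so they are not separate evidence, and they were not planned beforehand.

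**Figure D4:**
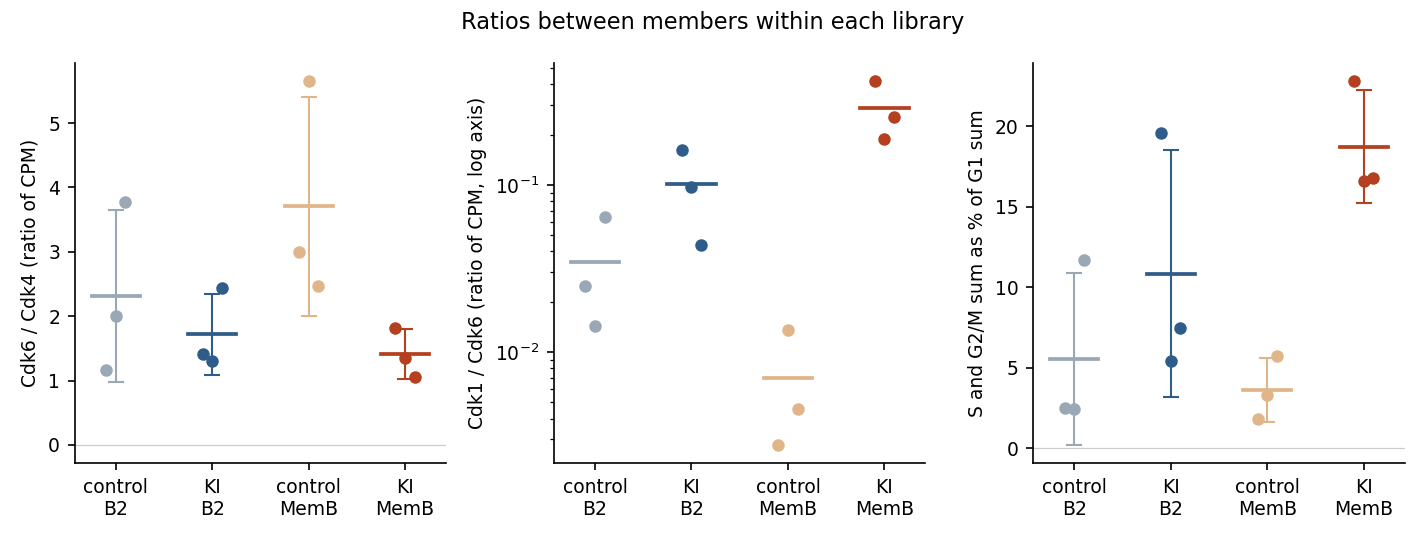
Ratios between members within each library, by group. Points are libraries, wide bars are means, and error bars on the linear axes are 1 SD (n = 3). Left, Cdk6 to Cdk4. Middle, Cdk1 to Cdk6 on a log axis. Right, summed S and G2/M members as a percentage of summed G1 members, where KI MemB lies between 16.6% and 22.8% and control MemB between 1.8% and 5.71%.

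Of the marker lists of other cells given here, those of T and NK cells and of B-1 cells did not overlap between the MemB groups, both higher in control, while those of plasma cells and macrophages did. The summed B2 markers did not overlap either, at 2347 to 3008 CPM in control MemB and 497 to 893 CPM in KI MemB. Within that B2 list, Ighd and Ighm were lower in KI MemB, and Fcer2a and Cr2 were higher on average. Within the B-1 list, Bhlhe41 (327 CPM in control and 246 CPM in KI MemB), Spn and Cd5 were lower on average in KI MemB. Zbtb32 was not (141 and 146 CPM), and no B-1 marker passed the test. The summed level of 9 T and NK cell markers was between 79.1 and 119 CPM in control MemB, between 1.98 and 48.8 CPM in KI MemB, between 20.4 and 44.2 CPM in control B2 and between 17.8 and 44.2 CPM in KI B2, and none of the 9 was at 0 in a whole group. This list and that of B-1 cells, at 206 CPM or less in B2, were highest in the control MemB libraries, which were also highest in Cdk6. Within that group, replicate 2 had the highest Cdk6 (251 CPM) and T and NK sum (119 CPM), but the lowest B-1 sum (581 CPM). KI MemB kept a B-1 sum of 463 to 517 CPM, above B2, while its Cdk6 lay within the range of the B2 groups. The 5 plasma cell markers summed to between 302 and 495 CPM in control MemB and between 375 and 505 CPM in KI MemB, with 4 of 5 detected in every control and 5 of 5 in every KI library, and Jchain, which joins IgA and IgM into polymers, averaged 10.1 and 140 CPM (log2 fold change 3.80, edgeR adjusted p = 0.00495). The other plasma cell markers did not pass, with -0.57 for Prdm1, -0.56 for Irf4, 0.07 for Xbp1 and 6.81 for Sdc1, which was at 0.0394 and 4.83 CPM. Macrophage markers summed to between 68.5 and 134 CPM in control MemB and between 105 and 124 CPM in KI MemB, with 5 of 7 detected in every library and Gata6 at 0 in all of them. The part of these cells in the member values was not tested. With the 3 libraries that held mast cell RNA left out, an alternative chosen after seeing the data that leaves 1 control MemB library, none of the members was called in any contrast, the KI effect in MemB was -1.90 for Cdk6 (edgeR adjusted p = 0.131), 2.56 for Cdk1 (0.754), 2.57 for Ccnb2 (0.754), 0.10 for Cdk4 and -0.80 for Ccnd3, where the median of all genes was itself 0.24. The medians were then -0.65 over the G1 members and 2.12 over the S and G2/M members.

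Other cyclins, CDKs and their regulators were read from 6 lists of 71 genes, of which 65 were tested. They include 21 tested genes of transcriptional and other CDK complexes and hold no replication or spindle genes. In MemB, edgeR called none of the 65 by genotype, and 4 had an unadjusted p below 0.05, a smaller share than the 11.1% of all genes. DESeq2 called 2 of them, both higher in KI, Cdkn1a (log2 fold change 5.69, DESeq2 adjusted p = 6.13e-06) and Cdk9 (1.49, adjusted p = 0.0428), beside 4.88% of all genes it tested. The median log2 fold change over the 65 was 0.07, and 34 of them were above 0. The 6 not tested (Ccna1, Ccnb3, Cdk18, Cdkn1c, Cdkn2a and Cdkn2b) held at most 1 count in any library.

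Among CDK inhibitors, Cdkn1a (p21, which blocks cyclin-CDK complexes) had the smallest p. It was at 29.1, 11.5 and 27.8 CPM in KI MemB, 0.625, 0.469 and 0.240 CPM in control MemB, 0.384, 8.20 and 13.7 CPM in KI B2, and 0.202, 0.302 and 1.2 CPM in control B2. KI MemB did not overlap control MemB, with a log2 fold change of 5.67 (SE 1.36, edgeR adjusted p = 0.0619). Of the other 3 inhibitors tested, none had an unadjusted p below 0.05. The kinase activators and brakes (7 tested) had a median log2 fold change of 0.89, with Cdc25c, the phosphatase that activates CDK1, at 19.9, 0.214 and 0.619 CPM in KI MemB and 0.426, 0.0880 and 0.300 CPM in control MemB, so that its estimate of 4.65 (SE 2.04, edgeR adjusted p = 0.387) came from replicate 1 alone.

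In the Rb and E2F list (19 tested, median 0.12), E2f1, a transcription factor that RB1 restrains, had the smallest p, at 23.7, 6.56 and 1.6 CPM in KI MemB and 2.90, 1.32 and 0.390 CPM in control MemB (log2 fold change 2.79, SE 1.24, edgeR adjusted p = 0.393). Those groups overlapped. Cdk9, the kinase of the transcription elongation factor P-TEFb, was at 64.4, 63.8 and 153 CPM in KI MemB and 20.8, 38.0 and 41.8 CPM in control MemB, without overlap (1.48, SE 0.45, adjusted p = 0.235). Among 8 other cyclins tested the smallest p was that of Ccnf, which encodes cyclin F (-2.68, SE 1.54, edgeR adjusted p = 0.545), and among 6 genes of cyclin degradation that of Cdc20, an activator of the anaphase-promoting complex (2.86, SE 1.68, adjusted p = 0.556). Between MemB and B2, averaged over genotypes, 2 of the 65 were called, beside 1.01% of all genes, both higher in MemB: Fbxw7, the F-box protein that marks cyclin E for degradation (log2 fold change 1.05, SE 0.24, edgeR adjusted p = 0.0190), and Cdk14, a kinase of the PCTAIRE-related family (4.67, SE 1.19, adjusted p = 0.0384). Fbxw7 lay between 72.2 and 161 CPM in the 6 MemB libraries and between 45.8 and 79.3 CPM in the 6 B2 libraries, with a small overlap. Cdk14 was at 2.76, 25.2 and 9.41 CPM in control MemB and at 0.818, 0.368 and 10.4 CPM in KI MemB, against 0.843 CPM or less in B2, so that its call rests on 4 of the 6 MemB libraries. Neither call held throughout. Fbxw7 fell under the fold limit with library totals only (0.98) or upper-quartile factors (0.97), and was not called without KI B2 replicate 1, KI B2 replicate 3 or control MemB replicate 2 (edgeR adjusted p up to 0.0911). Cdk14 was not called by a non-robust fit (edgeR adjusted p = 0.0631), with a replicate block, without the libraries holding mast cell RNA, or without any single control B2 library, KI B2 replicate 1 or 2, control MemB replicate 2 or KI MemB replicate 3 (adjusted p up to 0.186).

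The genes whose log2 CPM followed each member most closely over the 12 libraries were listed by Pearson's r as a description, since libraries share depth, group and amplification. Cdk1 was followed by Gsn (r = 0.93), Ttll5 (0.90) and Aspm (0.89), the last a spindle pole protein. Cdk4 was followed by Ighg1 (0.91), Pld4 (0.90) and Sh3kbp1 (0.90), and Cdk6 by A230056P14Rik (0.89), Clip1 (0.85) and Umad1 (0.84). Ccnd2 was closest to Gm20511, Usp36 and Capn3 (0.85 each), and Ccnd3 to Gm15433 (0.91), Ahctf1 (0.86) and Per1 (0.84). For Ccne1 they were AI839979 (0.88), Pcsk4 (0.87) and Trim30a (0.84), and for Cdk2 Gm44280 (0.90), Gm57464 (0.89) and Cdk2ap1rt (0.85). Those of Ccna2 were Thap1 (0.90), Ckb (0.85) and Gm43024 (0.85). The B-type cyclins had different lists, with Gtf2h1 (0.89), Golph3 (0.88) and Gm47567 (0.88) for Ccnb1 and Hikeshi (0.88), Ly6k (0.87) and Srsf10 (0.86) for Ccnb2. Among the members themselves, the closest pairs were Ccna2 with Cdk1 (0.78) and Ccnb2 with Cdk1 (0.73), and the most negative were Cdk4 with Ccne1 (-0.55), Cdk6 with Ccnb2 (-0.54) and Ccne1 with Ccnb2 (-0.51). Ccnb1 followed Cdk1 less closely (0.50).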

How the data were processed

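The authors used FastQC 0.12.1, cutadapt 4.5 and STAR 2.7.11a (genome mm39) on the reads and deposited RSEM 1.3.3 expected counts per gene, not normalized; versions are those of the submitters' processing notes. RNA was amplified with the Ovation RNA-seq System V2. Strand and annotation are not given in the sources used here, so reads of overlapping genes cannot be separated. Expected counts (32.2% of non-zero values not whole) were rounded. The 813 rows without a symbol held 0.605% to 0.689% of counts and were kept, 215 of them in the tests.

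With edgeR 4.0.16 in R 4.3.3, 4 group means were fitted to all 12 libraries, using TMM scaling, robust quasi-likelihood tests, filterByExpr (minimum count 10) and Benjamini-Hochberg adjustment over 15148 genes. The SE is the log2 fold change divided by the square root of F. The fit was tested on simulated data, and a gene that was not called may still differ. Counting error alone would understate the spread, because amplified reads are not independent molecules. Members and gene lists were chosen with earlier results of these data known. All members are named, with each list's called genes or, where none was called, its smallest p for KI against control in MemB, and the 3 genes closest to each member by r of log2 CPM (prior count 2). Cdk9 and Cdc20, the smallest p for that contrast in lists that held a called gene, were named after their values were seen. Alternatives were other scalings and filters, DESeq2 1.42.0, a non-robust fit, 6 libraries only, a replicate block, ribosomal rows left out and each library left out. After seeing the data, 5 were added: pseudogene rows summed with their genes, rows without a symbol left out, libraries with mast cell RNA (above 10 CPM) left out, canonical transcript length and the spacing of CCAAT words. The ratios and sums within a library were not planned beforehand.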

Additional observations from a re-analysis of the deposited data

How the results depend on the processing

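No member was called between KI and control in MemB, where 43 genes were called in all. DESeq2 called 3 members (Cdk1, Ccnb2 and Cdk6), beside 767 genes in all. With no filter on low counts, edgeR called 1 (Cdk6), beside 90 genes in all. When a library was left out it called 0 to 1. This was Cdk6 without control B2 replicate 1 (42 genes in all), control B2 replicate 3 (47) or KI B2 replicate 3 (50). Between MemB and B2, members called ranged from 0 to 1 without a library. In controls with no filter 1 (Cdk6) was called, beside 96 genes in all, against 40 with the filter. Of the 65 other cyclins, CDKs and regulators, DESeq2 called 2 by genotype in MemB (Cdkn1a and Cdk9). It called 1 by genotype in B2 (Cdkn1a, beside 190 genes in all). By cell type it called 1 each in control (Cdk14, beside 662) and in KI (Fbxw7, beside 623). With no filter, edgeR called 1 by genotype in MemB (Cdkn1a, beside 90). Leaving out a library gave 0 to 1, with 1 without KI B2 replicate 1 (41 genes in all) or control B2 replicate 3 (47). Their 2 calls between MemB and B2 (beside 153 genes in all) became 4 with no filter (236). They became 1 each with library totals only (144), upper-quartile factors (143) or a non-robust fit (116). Without a library there were 0 to 4. There were 0 without KI B2 replicate 1 (112) or control MemB replicate 2 (139). There was 1 without KI B2 replicate 2 (104), control B2 replicate 1 (123) or control B2 replicate 3 (116), and there were 4 without KI MemB replicate 2 (149). The cause was not tested.

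No member estimate that reversed had been called. Leaving out a library moved the genotype estimate in MemB from -0.40 to 0.26 for Ccnd3, -0.35 to 0.79 for Cdk2 and -0.37 to 1.55 for Ccnb1, and in B2 from -0.13 to 0.46 for Ccnd3, -1.26 to 0.26 for Ccne1, -2.54 to 1.54 for Ccnb1 and -0.26 to 1.02 for Ccnb2. The difference between these effects ran from -0.65 to 0.09 for Ccnd3, -0.15 to 0.19 for Cdk4, -1.10 to 0.42 for Ccne1, -1.09 to 0.05 for Cdk2, -2.10 to 1.35 for Ccna2 and -1.34 to 2.88 for Ccnb1. MemB against B2 ran from -0.01 to 0.37 for Ccnd3, -0.41 to 0.98 for Ccna2, -0.11 to 0.54 for Ccnb2 and -0.12 to 1.34 for Cdk1. Without the libraries holding mast cell RNA, where the lone control MemB library is assumed to vary like the other groups and the median of all genes shifted to 0.24 by genotype in MemB and 0.38 for the difference of effects, Cdk4 in MemB was 0.10, still below that median, and the differences of effects were 0.31 for Cdk4, 0.35 for Ccne1 and -0.53 for Ccna2. With pseudogene rows added, Ccnb2 in B2 was -0.70.

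Same-numbered libraries did not deviate together (correlations from -0.0139 to 0.0344). Because replicates of a group differed widely, this cannot decide whether same-numbered libraries came from one animal. With a replicate block no member was called, Cdk6 by genotype in MemB was -1.47 (edgeR adjusted p = 0.110), and Ccna2 turned to -0.17 for the difference of effects and to 0.08 for MemB against B2. Members had as few as 11 counts in a library, which limits Cdk1, Ccnb1 and Ccnb2 most.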
